A study of Mus musculus with 10 samples.

Results

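The expressed genes of a block at the proximal end of mouse chromosome 7, positions 3289080 to 4906516 (GRCm38, GENCODE M21), were described in pancreatic tumors of mice given sugar water or regular water. Members were the rows of the deposited table whose gene lay wholly within these 1.62 Mb and whose normalized count averaged at least 50 over the 10 tumors, without symbols beginning with Rpl, Rps, Nduf or Cox. Of the 95 rows within the block, 40 reached that mean, 3 of these were left out by symbol, and 37 genes remained as members, of 55359 rows in the table. The block was selected on the fold changes of these same 10 tumors, so its values in the comparison of the groups are given as a description. Calls from fits over all genes are counted beside the share of all genes called, and nothing is supported with them.

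RNA was sequenced from tumors that grew after cells of the mouse pancreatic cancer line KPC K8484, which express luciferase, were injected into the pancreas of C57BL/6J mice at 10 weeks of age. The 5 CTRL tumors came from normoglycemic mice on regular water and the 5 D30 tumors from hyperglycemic mice that drank 30% dextrose water for 14 days, and all mice carried the same line. The methods state equal numbers of male and female mice, and the sample titles call the tumors PDX although their source is the KPC line. Columns of the table are named N1, N2, N4, N5 and N6 (CTRL) and T1, T2, T4, T5 and T7 (D30), which is the order of all values below. N was matched to the normoglycemic titles by its letter, and T was taken as D30 because it is the only other group, so every direction below rests on that reading, and no column was tied to a single animal, so that the spread between columns is the only error available. Recovered reads per tumor ranged from 29192261 (T2) to 42122304 (N2). The epithelial keratin Krt18 was abundant, from 44919.6 to 75293 normalized counts in the CTRL tumors and from 78477 to 148886 in the D30 tumors, while the epithelial adhesion gene Epcam was low, at 15.9 to 191 and 0 to 62.5. T4 was the only tumor with reads of Y-linked genes (841 reads over 4 genes, 0 in every other tumor), and T5 had the fewest genes with a read, 20482. Both stood apart in several members, and values whose sign or size rests on them are given with and without them.

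Genes of this block serve unrelated tasks. It holds the leukocyte receptor complex, a run of genes for immunoglobulin-like receptors with which myeloid cells sense partners such as MHC class I and collagen, and between and around these receptors lie housekeeping genes for RNA splicing, mRNA decay and ubiquitin transfer. Towards its distal end follow genes that in healthy animals are used by few tissues, such as Ptprh, a receptor tyrosine phosphatase of intestinal microvilli, Tnni3, the inhibitory troponin of heart muscle, and Syt5, a calcium sensor of secretory vesicles. Neighbouring genes of a block can share chromatin or copy number, or simply lie side by side under separate promoters.

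The sequences upstream of the start are shown for the 3 members with the highest fold changes (Ptprh, Tmem150b and Tmc4), for Eps8l1, which has a called relative elsewhere in the genome, and, for contrast, for Cnot3, which did not separate the groups. They are the 250 bases before the RefSeq start (GRCm38.p6), 5′ to 3′ on the strand of the gene, with matches to any of 4 motifs on either strand in capitals. The motifs searched were the E-box CACGTG, the GC box GGGCGG, the CCAAT box CCAAT and the TATA box TATAAA, none of which contains another, although matches may share bases at their ends.
Ptprh (chr7:4604042-4604291, minus strand): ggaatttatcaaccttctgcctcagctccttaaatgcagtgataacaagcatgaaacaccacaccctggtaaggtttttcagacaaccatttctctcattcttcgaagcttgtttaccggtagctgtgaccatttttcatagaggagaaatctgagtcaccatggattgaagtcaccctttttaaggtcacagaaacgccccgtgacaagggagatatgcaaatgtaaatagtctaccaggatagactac
Tmem150b (chr7:4725252-4725501, minus strand): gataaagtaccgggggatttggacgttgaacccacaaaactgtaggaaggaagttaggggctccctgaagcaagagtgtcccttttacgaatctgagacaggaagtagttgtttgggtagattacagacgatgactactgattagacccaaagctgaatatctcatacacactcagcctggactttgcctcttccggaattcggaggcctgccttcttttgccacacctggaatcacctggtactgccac
Tmc4 (chr7:3677554-3677803, minus strand): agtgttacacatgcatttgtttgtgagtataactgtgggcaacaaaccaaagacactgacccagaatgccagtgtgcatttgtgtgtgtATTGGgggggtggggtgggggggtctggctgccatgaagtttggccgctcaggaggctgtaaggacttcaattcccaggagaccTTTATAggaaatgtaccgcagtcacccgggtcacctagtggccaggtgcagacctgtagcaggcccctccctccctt
Eps8l1 (chr7:4460447-4460696, plus strand): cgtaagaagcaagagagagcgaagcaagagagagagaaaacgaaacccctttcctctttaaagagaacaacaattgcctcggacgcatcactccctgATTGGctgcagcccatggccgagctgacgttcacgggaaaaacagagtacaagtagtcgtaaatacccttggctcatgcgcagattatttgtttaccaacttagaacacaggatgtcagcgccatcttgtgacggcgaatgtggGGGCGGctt
Cnot3 (chr7:3645019-3645268, plus strand): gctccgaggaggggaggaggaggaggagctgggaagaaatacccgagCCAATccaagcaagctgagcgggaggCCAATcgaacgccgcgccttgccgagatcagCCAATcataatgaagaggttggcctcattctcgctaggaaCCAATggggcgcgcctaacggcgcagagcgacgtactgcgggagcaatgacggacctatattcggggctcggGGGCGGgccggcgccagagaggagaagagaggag

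None of the 4 motifs stood upstream of Ptprh or of Tmem150b. Tmc4 held a CCAAT box and a TATA box, each read on the opposite strand, Eps8l1 a CCAAT box and a GC box, and Cnot3 4 CCAAT boxes and a GC box. An upstream sequence was found for 33 of the 37 members, and the E-box, the site of carbohydrate-responsive and other basic helix-loop-helix factors, was in 0 of these 33 against 6.04% of all 32536 distinct promoters in the table. The GC box and the CCAAT box were each in 16 members (48.5%, against 33.0% and 33.8% of all promoters), and the TATA box was in 4 (12.1% against 12.3%). Members had a median of 11 CpG dinucleotides in this stretch, against 6 over all promoters, with a median GC content of 53.6% against 52.4%. A match is only a run of letters, and its absence says only that the letters are not in this window.

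Across the block 27 members had a higher level in D30 tumors and 10 a lower level, with a median log2 fold change (D30 against CTRL, on the log2(normalized count + 1) scale) of 0.41. The quartiles of the members were -0.04 and 1.05, and their range ran from -0.95 for Lilra5 to 3.61 for Ptprh. Over all 13550 genes with a mean of at least 50 the median was -0.03 and 47.5% were higher, and over the 992 such genes on chromosome 7 outside the block the median was 0.13 and 60.0% were higher. In limma's moderated test over all 24560 genes tested, with Benjamini-Hochberg adjustment, 5 members were called higher (13.5% of members) and 0 lower. Of all tested genes 1.4% were called higher and 1.36% lower. Among genes with a mean of at least 50 it was 2.16% and 1.48%, and among those on chromosome 7 outside the block 2.92% and 0.71%. At an unadjusted p under 0.05 the same test had 15 members higher and 0 lower, and the share of all genes at that p was not counted. edgeR and DESeq2 on recovered reads called 9 and 12 members higher, and each called 0 lower. These tools also called more genes over the whole table than limma, which called 678 in either direction. edgeR called 707 of 17127 tested genes and DESeq2 1957 of 24560. Every D30 tumor lay above every CTRL tumor in 10 members and below in 0, against 2.87% and 3.32% of all tested genes. The shares were 4.11% and 3.85% over genes with a mean of at least 50, and 6.55% and 2.42% over such genes on chromosome 7 outside the block. Some members reached the mean of 50 only through the D30 tumors. Their CTRL means were 27.6 (Tmem150b), 28.4 (Tnni3), 34.5 (Dnaaf3) and 15.8 (Syt5). For these genes the filter drew on the same difference that the counts describe. Since these fold changes were in view when the block was chosen, nothing was read from the surplus of calls.

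**Figure D1:**
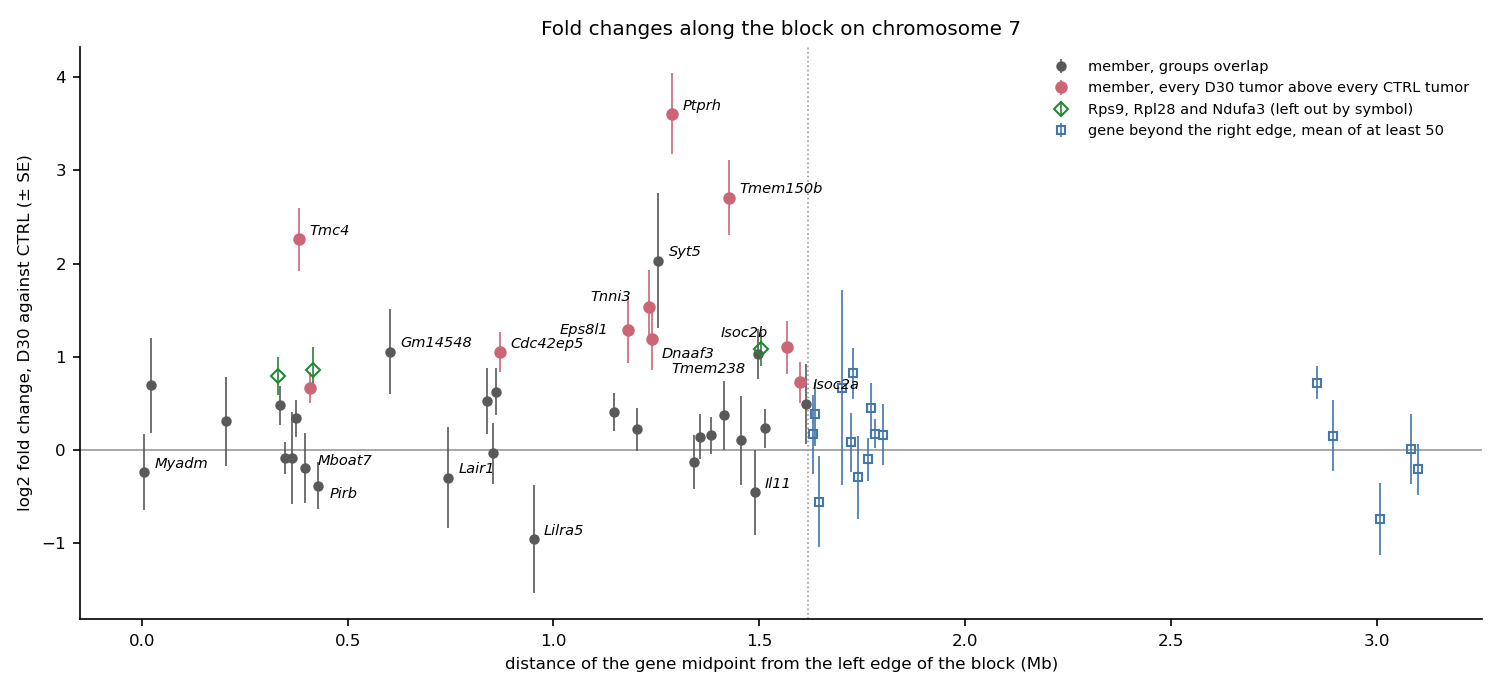
Log2 fold change of each gene (D30 against CTRL, points, with the standard error as bars) against the distance of its midpoint from the left edge of the block in Mb; the dotted line is the right edge. The 10 members in red, in which every D30 tumor lay above every CTRL tumor, are spread from Tmc4 to Isoc2a and lie among members near 0, and no gene beyond the edge passed 0.82.

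The differences did not form a plateau. Among the 36 pairs of members next to each other, the median absolute difference in log2 fold change was 0.85, and in 19 pairs both fold changes had the same sign. The largest step, 3.74, lay between Ptprh (3.61) and the following member Tmem86b (-0.13), and Tmem150b (2.71) stood between Brsk1 (0.37) and Kmt5c (0.10). Tfpt and Prpf31 start only 56 bases apart on opposite strands and had log2 fold changes of 0.48 and -0.09. Mboat7 and Tsen34, whose annotated heads overlap on opposite strands, had -0.19 and 0.67.

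The membrane proteins held the largest differences. Of 7 such members 6 were higher in D30 tumors, 3 were called, and their median log2 fold change was 2.03. Ptprh (chromosome 7, 4548612 to 4604041) had normalized counts of 96.8, 26.7, 82.2, 70.8 and 58.2 in the CTRL tumors and 944, 1347, 294, 626 and 1100.4 in the D30 tumors. The lowest D30 tumor, T4, was still above the highest CTRL tumor. The CTRL mean of 66.95 ± 26.6 and the D30 mean of 862 ± 411 (SD, n = 5 each) gave a log2 fold change of 3.61 with a standard error of 0.44, and of 3.95 without T4.

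Tmem150b (4706832 to 4725249), a protein of the DRAM family that is tied to autophagy, had normalized counts of 41.03, 17.3, 29.2, 24.8 and 25.7 in the CTRL tumors and 179, 179, 430.3, 106 and 127 in the D30 tumors. T4 was the highest tumor here, and the other D30 tumors also lay above all CTRL tumors. The log2 fold change of 2.71 (standard error 0.40) was 2.39 without T4, and the gene overlaps Brsk1 on the opposite strand. Tmc4 (3665790 to 3677553), a transmembrane channel-like protein of epithelia, had normalized counts of 688, 373, 768, 878 and 747 in the CTRL tumors and 3965, 5749, 2375, 1573 and 3868 in the D30 tumors. All D30 tumors were above all CTRL tumors, with T5 the lowest of them. Its CTRL mean was 691 ± 191 and its D30 mean 3506 ± 1612 (SD, n = 5 each), and the log2 fold change was 2.26 (standard error 0.34). As a level per kilobase of exon over all tumors, Tmc4 was the most abundant of these 3 genes, at 490.3 normalized counts against 111 for Ptprh and 31.1 for Tmem150b.

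In Syt5 (4539765 to 4547541) the difference was carried by fewer tumors. Its normalized counts were 19.99, 12.3, 21.9, 3.54 and 21.4 in the CTRL tumors and 32.9, 17.2, 49.7, 355 and 66.04 in the D30 tumors. T5 was far above every other tumor, T2 lay within the CTRL range, and the groups overlapped. The log2 fold change was 2.03 (standard error 0.73) and 1.39 without T5, and among the tools only DESeq2 called it.

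The other 3 membrane proteins differed less. Tmem238, a small protein of little known function, went from 916 ± 267 to 1907 ± 656 (log2 fold change 1.03), with the D30 tumor T5 inside the CTRL range. It was called by edgeR and DESeq2 but not by limma on all tumors. Limma called it without T4 or without T5. Ttyh1, of the tweety family of anion channels, had 146 ± 27.9 and 229 ± 101, a log2 fold change of 0.52. Myadm, a protein with many membrane spans first found in myeloid differentiation, had normalized counts of 2716, 4242, 4786, 4035 and 4144 in the CTRL tumors and 5056, 4307, 898, 4667 and 4479 in the D30 tumors. T4 was far below every other tumor, the rest overlapped, and the log2 fold change of -0.23 became 0.24 without T4.

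**Figure D2:**
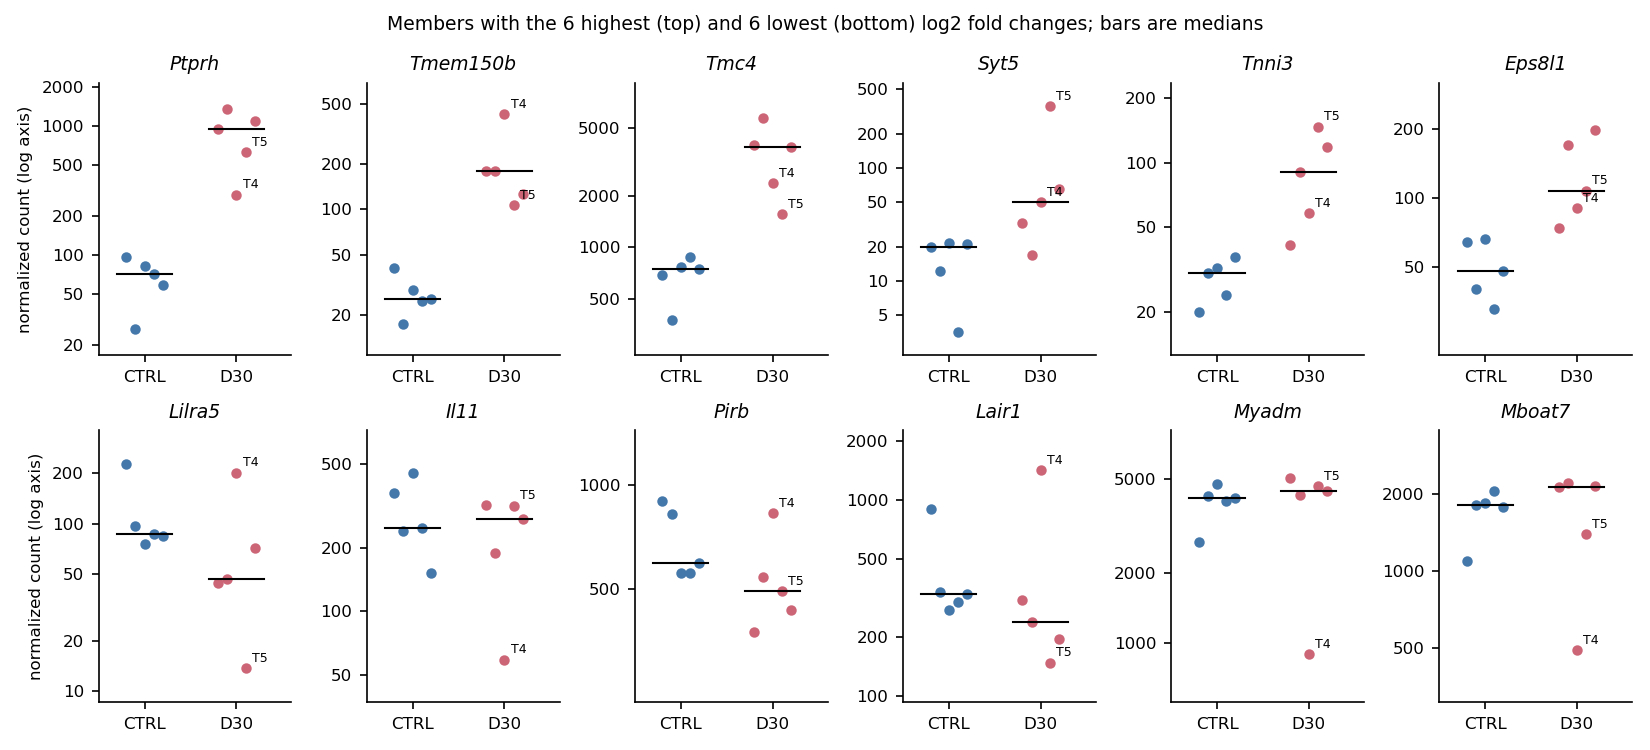
Normalized counts (log axis) of the 6 members with the highest and the 6 with the lowest log2 fold changes, 1 point per tumor, with the group median as a bar and T4 and T5 labelled. The groups are apart in Ptprh, Tmem150b, Tmc4, Tnni3 and Eps8l1, and they overlap in Syt5 and in all 6 members of the lower row.

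Epithelial marker levels also differed between the groups. The summed normalized counts of 7 epithelial tumor cell markers ranged from 209909 to 335527 in CTRL and from 341308 to 475874 in D30 tumors, with 6 of 7 higher. None of the 7 was called by limma or edgeR, 2 were called higher by DESeq2, and in limma 6 had an unadjusted p under 0.05, 5 of them higher and 1, Epcam, lower. All 4 endothelial markers had lower levels, with summed counts between 9611 and 16665 in CTRL and between 4086 and 7743 in D30 tumors, and Cdh5 among them was called lower. Of 5 fibroblast markers 5 were lower, summing to 47574 to 87154 in CTRL and 11025 (T4) to 72377 in D30 tumors, with 0 called by limma and edgeR, 1 by DESeq2 and 3 at an unadjusted p under 0.05 in limma. The 6 T and NK cell markers were lower, with 0 called by limma, edgeR and DESeq2 and 1 at an unadjusted p under 0.05 in limma. Acinar markers, of normal pancreas, summed to 268 to 47671 in CTRL and 144 to 4197 (T4) in D30 tumors, with 4 of 5 lower, 0 called by limma, edgeR (which tested 2) and DESeq2, and 2 at an unadjusted p under 0.05 in limma. The platelet marker Gp9 was called higher, and its list summed to 564 to 847 in CTRL and 427 to 4743 (T4) in D30 tumors. The part of these cells in the differences of the block was not tested. In bulk tumors fewer cells of a type and less RNA per cell cannot be told apart.

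Kinases, phosphatase subunits and cytoskeletal regulators were all higher on average, by less. All 6 had positive log2 fold changes, from 0.14 to 1.29 with a median of 0.53, although under scaling by library size alone Ppp1r12c and Ppp6r1 turned slightly negative. Cdc42ep5 (4151260 to 4164860), an effector of the GTPase CDC42 that acts on septins, had normalized counts of 2591, 1800.0, 2756, 2013 and 2257 in the CTRL tumors and 3531, 4337, 7095, 4028 and 5041 in the D30 tumors. Every D30 tumor was above every CTRL tumor, T4 the highest, the log2 fold change was 1.05 (standard error 0.21), and it was called. The call was lost without N2, N5, N6 or T7, under the GC correction and without a mean-variance trend. With 2752 normalized counts per kilobase of exon it was the most abundant member for its length.

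Eps8l1 (4460674 to 4480487), a relative of the actin regulator EPS8, had normalized counts of 64.2, 39.8, 65.8, 32.8 and 47.9 in the CTRL tumors and 74.03, 171, 90.2, 108 and 199 in the D30 tumors. The groups did not overlap, though the lowest D30 tumor, T1, was close to the highest CTRL tumor. With a log2 fold change of 1.29 (standard error 0.36), Eps8l1 was called only when T4 was left out, when T4 and T5 were left out, or with DESeq2. Brsk1, a brain kinase activated by LKB1, had 0.37. Ppp1r12c, a targeting subunit of myosin phosphatase, had 0.22 and Ppp6r1, a regulatory subunit of protein phosphatase 6, 0.14. In both, the 4 D30 tumors other than T4 were above every CTRL tumor, and T4 was below every CTRL tumor, and without T4 the values were 0.44 and 0.37.

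The immunoglobulin-like receptors of leukocytes did not share a direction. Of the 5 members 2 had a higher and 3 a lower average in D30 tumors, and the groups overlapped in each. None was called by limma, edgeR or DESeq2, and 1 had an unadjusted p under 0.05 in limma. Lilra5 (4237754 to 4243463), an activating receptor of myeloid cells, had normalized counts of 226, 96.9, 75.8, 86.8 and 84.7 in the CTRL tumors and 44.2, 46.96, 202, 13.7 and 71.4 in the D30 tumors. N1 and T4 were the highest tumors of their groups and T5 the lowest of all, and the log2 fold change was -0.95 (standard error 0.58) and -1.43 without T4. Lair1, an inhibitory receptor for collagen, followed the same tumors, with 904, 341, 273, 300.1 and 333 in the CTRL tumors and 309, 237, 1427, 148 and 194 in the D30 tumors. Again N1 and T4 were far above the others, and the value of -0.30 became -0.84 without T4 and turned positive with edgeR and DESeq2.

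Pirb, the inhibitory paired receptor that binds MHC class I, had normalized counts of 898, 820.5, 556, 553 and 595 in the CTRL tumors and 374, 539.5, 828, 491 and 435 in the D30 tumors. T4 lay within the upper CTRL values and the other D30 tumors lay below every CTRL tumor, for a log2 fold change of -0.38 (standard error 0.25). Gm14548, a predicted gene between Pirb and Lair1, had 21.7 to 75.3 in CTRL and 64.1 to 265 in D30 tumors (log2 fold change 1.05), with T4 the highest. Tarm1, an activating receptor of neutrophils, had 0.31, with 182 in T5 against 35.2 to 92.5 in the other D30 tumors, and -0.05 without T5. Receptors of this cluster are close copies of each other, and how reads shared by copies were split in this table is not stated, so each value is uncertain. Among myeloid markers, the lysozyme gene Lyz2 was also highest in N1 (30899, against 10359 to 17584 in the other CTRL tumors) and T4 (46217, against 2716 to 9122 in the other D30 tumors), whereas Csf1r, the receptor that defines macrophages, was lowest in T4 (693) and was called lower in D30 tumors. Without T5 this call was lost, and 0 macrophage markers were called. By contrast, 4 of the 8 were called lower without T4 and 4 without T4 and T5. DESeq2 called 2 lower, and so did limma under scaling by library size alone. The summed count of 8 macrophage markers was 26365 to 57463 in CTRL and 12665 (T5) to 69272 (T4) in D30 tumors, with 6 of 8 lower. The 5 neutrophil markers were all higher on average except under scaling by library size alone (4 of 5) and without T5 (4 of 5), summing to 598 to 2890 in CTRL and 714 to 12844 (T5) in D30 tumors, and 0 were called by limma and edgeR, 1 by DESeq2 and 3 at an unadjusted p under 0.05 in limma. Their part in the receptor values was not tested.

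Genes for RNA, chromatin and protein turnover were close to even. Of 10 such members 7 were higher and 3 lower, with a median log2 fold change of 0.19 and 1 call. Under scaling by library size alone 5 were higher and 5 lower, and without T4 9 were higher. The called gene was Tsen34 (3692863 to 3701024), the nuclease subunit that cuts introns from transfer RNAs. Its normalized counts were 1463, 1599.7, 2023, 1520.0 and 1833 in the CTRL tumors and 2371, 2935, 2594, 2471 and 3005 in the D30 tumors. The groups did not overlap, but the gap was narrow, from 2023 in the highest CTRL to 2371 in the lowest D30 tumor. The log2 fold change was 0.67 with a standard error of 0.16, the smallest among the members. The call was lost when most single tumors were left out, remaining only without T4 or without T5. It was also lost under scaling by library size alone or TMM, under the GC correction, without a filter and without a mean-variance trend.

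The splicing factor Prpf31 had -0.09, and Leng1 and Leng9, named for their place in this cluster, had 0.34 and 0.63. Tfpt, a subunit of the INO80 chromatin remodeler, had 0.48. Ube2s, which extends ubiquitin chains for the anaphase-promoting complex, had 0.23, and Hspbp1, a nucleotide exchange factor of HSP70, had 0.16, a value that turned negative under scaling by library size alone, as did Kmt5c. In others the value rested on T4. Cnot3, a scaffold subunit of the CCR4-NOT deadenylase, had normalized counts of 1174, 2146, 2018, 2401 and 1998 in the CTRL tumors and 2963, 2836, 370.1, 2149 and 2697 in the D30 tumors. T4 held fewer than any other tumor while the other D30 tumors reached into and above the CTRL range, and the log2 fold change was -0.09 with T4 and 0.48 without it. Kmt5c, the enzyme that trimethylates lysine 20 of histone H4, had 824, 1969.8, 1473, 2036 and 1898 in CTRL and 2347, 2646, 386, 2060.5 and 2667 in D30 tumors. Here too T4 was lowest, and 0.10 became 0.63 without it. Leng8 was at 4707 to 11799.8 in CTRL and 3687 to 12588 in D30 tumors, with a log2 fold change of -0.04 that turned to 0.24 without T4 and was also positive with edgeR, DESeq2 and upper-quartile scaling.

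Among 5 enzymes of lipids and small molecules, both isochorismatase-domain genes at the distal end separated the groups. Isoc2b (4844959 to 4870258) had normalized counts of 254, 160.5, 214, 126 and 179.7 in the CTRL tumors and 294, 336, 645, 313 and 455 in the D30 tumors, and Isoc2a (4877153 to 4896973) had 895, 709.9, 878, 752 and 934 in the CTRL tumors and 1316, 1682, 1051, 1033 and 2018 in the D30 tumors. Every D30 tumor was above every CTRL tumor in both, and T4 was the highest in Isoc2b but not in Isoc2a. The log2 fold changes were 1.10 (standard error 0.28) and 0.72 (standard error 0.22), and neither was called by limma on all tumors with the filter used here. DESeq2 called both, and Isoc2b was also called by edgeR and by limma on genes with a mean of at least 10. Without T4 limma called both, and without T5 it called Isoc2b. These 2 genes are close copies, so the split of reads between them is uncertain. Rdh13, a retinol dehydrogenase of mitochondria, had 0.41 with overlapping groups. Mboat7, which places arachidonate on lysophosphatidylinositol, had normalized counts of 1089, 1803, 1839, 2056 and 1781 in the CTRL tumors and 2123, 2215, 490.4, 1391 and 2139 in the D30 tumors. T4 was below all others and N1 below the other CTRL tumors, and -0.19 became 0.21 without T4. Tmem86b, a lysoplasmalogenase, had 73.6 to 113 in CTRL and 56.7 to 125 in D30 tumors, and its log2 fold change was -0.13, or 0.01 without T4.

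Of the remaining 4 members, Tnni3 and Dnaaf3 separated the groups at low levels. Tnni3 (4518305 to 4524229) had normalized counts of 19.99, 30.4, 31.98, 23.9 and 35.9 in the CTRL tumors and 41.1, 90.5, 57.8, 148 and 118 in the D30 tumors, and Dnaaf3 (4522933 to 4532453), an assembly factor for the dynein arms of cilia, had 24.2, 33.3, 42.03, 30.98 and 41.9 in the CTRL tumors and 54.5, 79.04, 77.5, 125 and 71.4 in the D30 tumors. T5 was highest in both, and the lowest D30 tumor, T1, was only just above the CTRL tumors. Their log2 fold changes were 1.53 (standard error 0.40) and 1.19 (standard error 0.33), and limma called neither in the fit reported here while edgeR and DESeq2 called both. Limma also called Tnni3 with a filter at a mean of 10, under the GC correction and without T1 or without T4. It called Dnaaf3 without a mean-variance trend. The genes overlap on the same strand, so that some reads could belong to either. Skeletal muscle markers were low, with 5 genes summing to 58.4 to 73.6 in CTRL and 99.7 to 169 in D30 tumors, 4 higher and 1 lower. Among them Myl1 was at 0 in 4 of the D30 tumors, and their part in the values of Tnni3 was not tested. Il11, a cytokine of the IL-6 family, had normalized counts of 367, 241, 454, 249 and 151 in the CTRL tumors and 319, 189, 58.99, 318 and 276 in the D30 tumors. T4 was lowest and the groups overlapped, with -0.45 becoming -0.02 without T4. The unnamed gene Gm36210 at the edge of the block had 39.3 to 65.5 in CTRL and 32.1 to 137 in D30 tumors (log2 fold change 0.49).

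**Figure D3:**
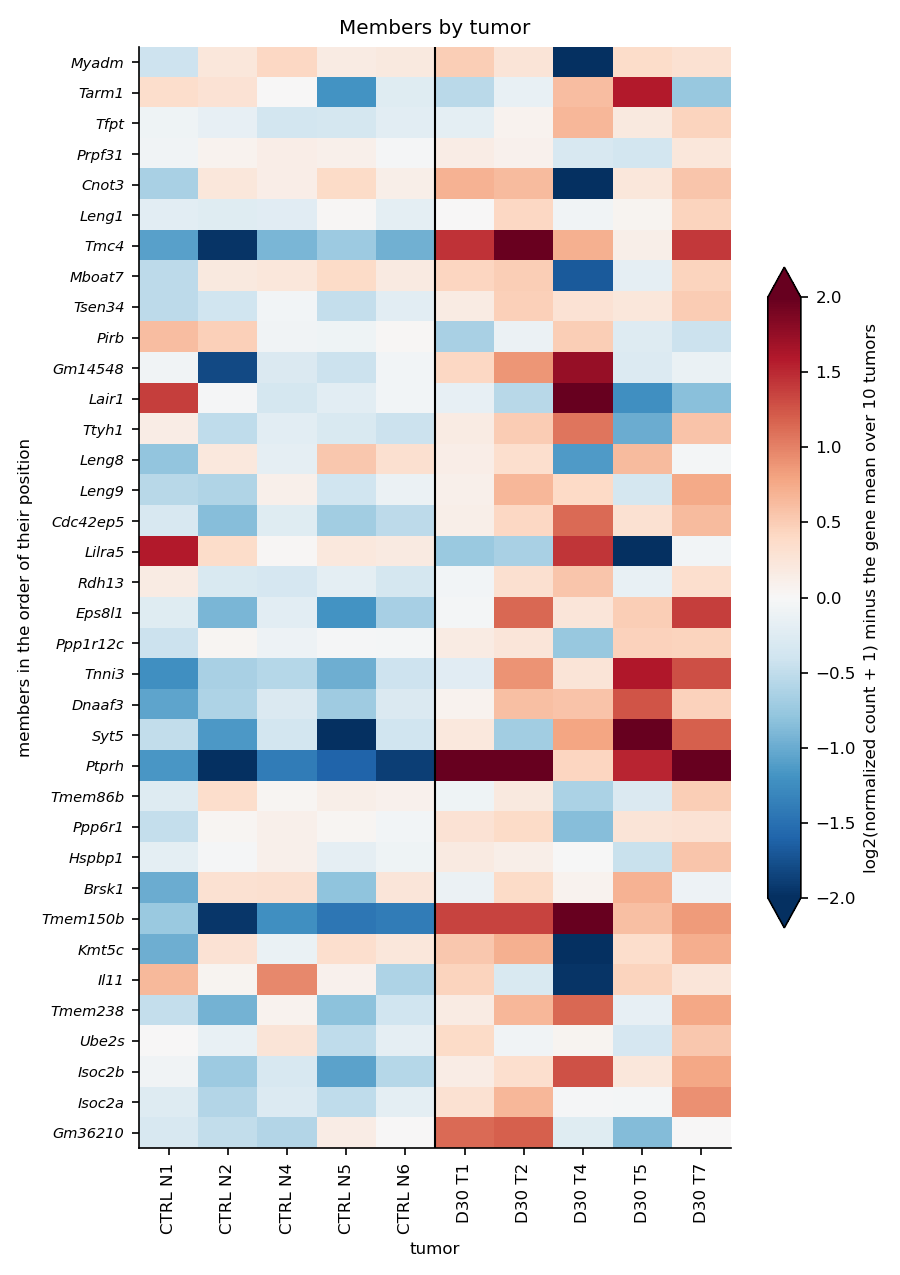
Level of 36 of the 37 members (rows, in the order of position) in each tumor (columns), as log2(normalized count + 1) minus the mean of the gene over 10 tumors, with colours cut at 2 on either side. D30 tumors are higher in Tmc4, Ptprh and Tmem150b throughout, whereas T4 alone is deep blue in Myadm, Cnot3, Mboat7, Kmt5c and Il11 and N1 and T4 share high Lair1 and Lilra5.

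Tumor by tumor, the median deviation of the members from their gene means on the log2 scale was negative in all CTRL tumors, from -0.32 (N1) to -0.13 (N4), and positive in all D30 tumors, from 0.16 (T1) to 0.46 (T7). Over all genes with a mean of at least 50 that median lay between -0.02 (T5) and 0.03 (T1). The block was chosen on the fold changes of these same tumors, so the opposite signs in the members were largely built in. Reads from members made up 0.0988% to 0.134% of all reads in CTRL tumors. In D30 tumors they made up 0.0871% in T4, 0.129% in T5 and 0.152% to 0.172% in the others, so that T4 had the smallest share of any tumor although its median deviation was 0.26. T4 was the lowest D30 tumor in 12 members and the highest in 11, and T5 the lowest in 14 and the highest in 8.

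T4 also differed from the other D30 tumors outside the block, along GC content and length. Over genes with a mean of at least 50, its level minus that of the other D30 tumors had a median of 0.60 on the log2 scale in the lowest tercile of exon GC content, -0.08 in the middle and -0.72 in the highest, and of 0.47, -0.09 and -0.39 from the shortest to the longest tercile of exon length. Members were GC-rich, with a median of 55.1% against 49.7% over these genes and 23 of 37 in the highest tercile, and their median difference in T4 was -0.29. Across the 37 members, which share these libraries, Spearman's rho of that difference was -0.18 with GC content and -0.25 with exon length. Without T4, 32 members were higher in D30 tumors, 10 were called higher (3.32% of all tested genes in the same fit), 13 had every remaining D30 tumor above every CTRL tumor and 2, Pirb and Lilra5, every one below (5.69% and 6.4% of all tested genes). After a correction for GC content within each tumor the median log2 fold change of the members was 0.47 and 27 were higher.

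**Figure D4:**
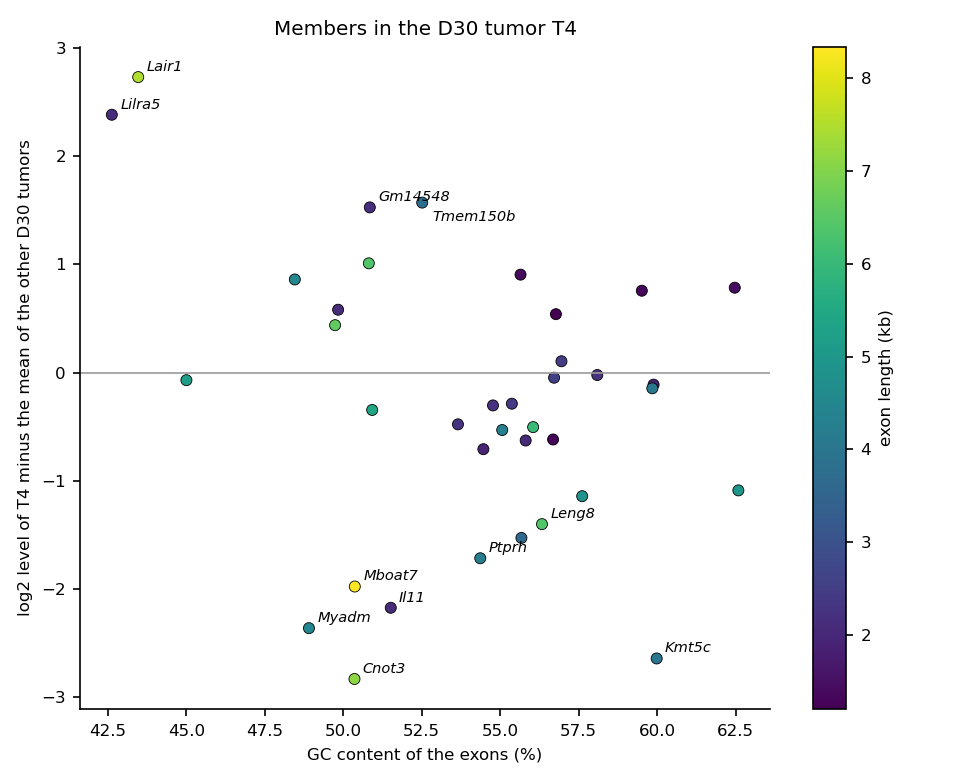
Level of each member in T4 minus the mean of the other D30 tumors (log2 scale) against the GC content of its exons in percent, 1 point per member, coloured by exon length in kb. Lair1 and Lilra5 lie highest and at the lowest GC contents, Cnot3, Kmt5c and Myadm lie lowest, and members of 50% to 60% GC spread over both signs.

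The rows of the block that the rule left out were in part like the members. All 3 genes left out by symbol were higher in D30 tumors, namely the ribosomal protein genes Rpl28 (log2 fold change 1.08) and Rps9 (0.86) and the complex I subunit gene Ndufa3 (0.79). Genes with these symbol beginnings were mostly higher wherever they lay, 179 of 195 with a mean of at least 50 and a median of 0.66. Of the 55 rows with a lower mean, 20 had no value above 0 and 28 were tested, with 15 higher, 13 lower and a median of 0.07. None of the 28 was called by limma, in which 4 had an unadjusted p under 0.05, or by edgeR, which tested 9 of them, and DESeq2 called 1. Just outside the limit stood Cacng7, a calcium channel subunit gene with a mean of 46.3 whose levels were 61.6 ± 16.1 in CTRL and 30.9 ± 1.45 in D30 tumors, every D30 tumor below every CTRL tumor (log2 fold change -0.94). The next was Gm15931 with a mean of 33.3 and 0.43. Just inside were Dnaaf3 and Tnni3, with means of 58.0 and 59.7.

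Beyond the right edge no gene reached the largest fold changes of the members. Of the 16 genes with a mean of at least 50 in the following 1.62 Mb, mostly zinc finger genes, 11 were higher with a median of 0.16, and 0 were called by limma in either direction (2 at an unadjusted p under 0.05), 1 by edgeR and 2 by DESeq2. Under scaling by library size alone 5 of the 16 were higher, and the median was -0.07. Without T4 11 were higher, 2 were called and the median was 0.43, next to 0.44 for the members. Zfp628, Nat14, Ssc5d and Zfp579 were the nearest, with log2 fold changes of 0.17, 0.39, -0.56 and 0.67. No gene between the start of the chromosome and the block reached a mean of 50, so the left edge could not be compared.

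Relatives of the members that lie outside the block took no part in the rule, but their lists were chosen with earlier results of these data known. The limma values of these relatives are therefore a description and not an independent test. Of 142 such genes in 18 lists of complexes, families and pathways 139 were tested, 78 had a higher and 61 a lower average, and their median log2 fold change was 0.04. Of the 139 tested, 3 were called, all higher. That share lay between the 1.4% of all tested genes called higher and the 2.76% called in either direction. An unadjusted p under 0.05 in limma was found for 15.

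Tmc5 (chromosome 7, 118597297 to 118675086), a relative of Tmc4 on the same chromosome but far from the block, had normalized counts of 207, 86.02, 266, 274 and 163 in the CTRL tumors and 1041, 1379, 680.1, 749 and 977 in the D30 tumors. Every D30 tumor was above every CTRL tumor, and limma over all genes gave a log2 fold change of 2.34, a standard error of 0.32 and an adjusted p of 0.00275. Tnni1 (chromosome 1, 135779434 to 135810989), the troponin I of slow skeletal muscle and a relative of Tnni3, had 32.6, 50.6, 63.04, 65.5 and 65.9 in the CTRL tumors and 598, 363, 184, 1567 and 292 in the D30 tumors. The D30 tumors spread widely, T5 the highest and T4 the lowest, and all lay above the CTRL tumors. The log2 fold change in limma was 3.04 with a standard error of 0.48 and an adjusted p of 0.00585. Eps8l3 (chromosome 3, 107877229 to 107892900), a relative of Eps8l1, had 745, 723, 982, 929.5 and 1076 in the CTRL tumors and 2441, 2978, 1388, 2637 and 1814 in the D30 tumors. Its D30 tumors were again all above the CTRL tumors, by 1.30 on the log2 scale in limma (standard error 0.23), and the adjusted p was 0.00962. Relatives of other members without overlap, such as the other CDC42 effectors of the list of Cdc42ep5, had no call. These 3 calls held without each tumor in turn (10 of 10) and under the 12 other settings tried, with limma, edgeR and DESeq2 among them.

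**Figure D5:**
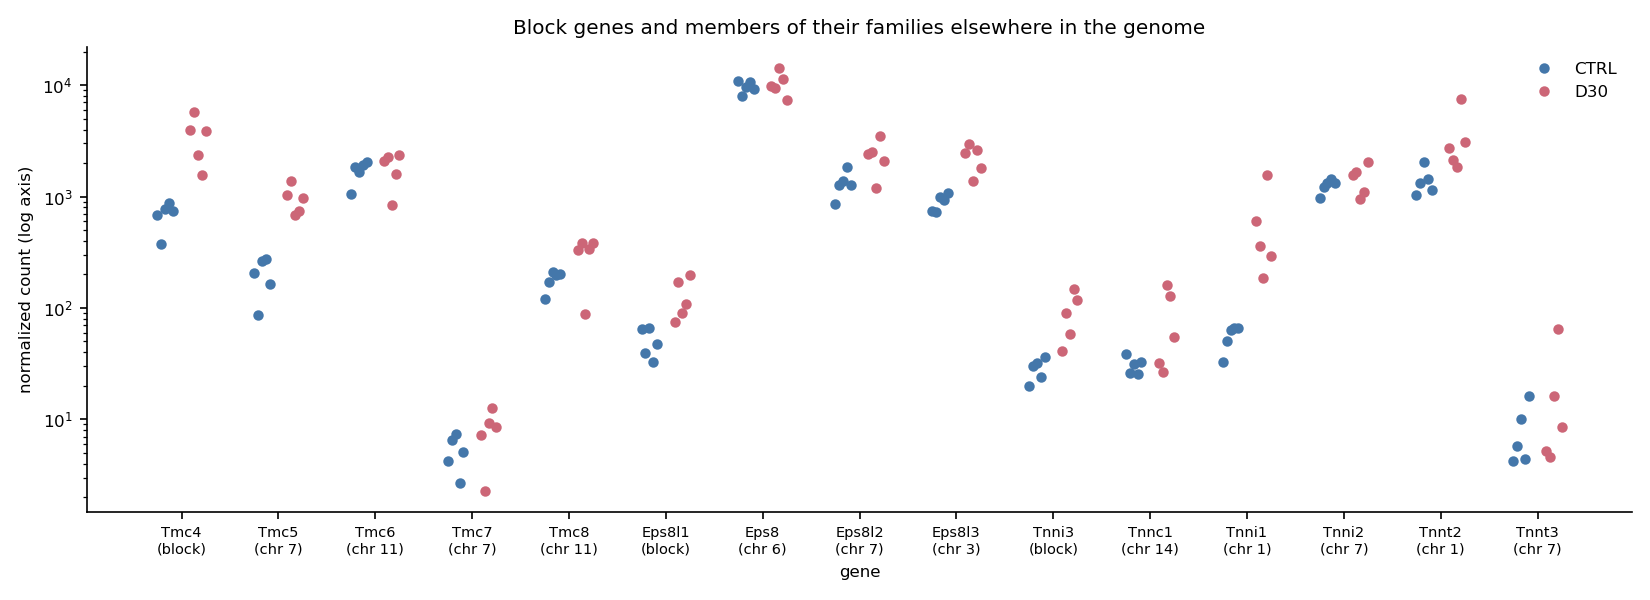
Normalized counts (log axis) of Tmc4, Eps8l1 and Tnni3 and of the tested members of their families elsewhere in the genome, 1 point per tumor, CTRL in blue and D30 in red; values of 0 are not drawn. The groups are apart in Tmc5, Eps8l3 and Tnni1 as in the 3 block genes, while they overlap in Tmc6 and Eps8. The families drawn come from the 3 lists that held a limma call, and no other of the 18 lists held one.

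Other members of these families were less clear. Eps8l2 had a log2 fold change of 0.78 (limma adjusted p = 0.175) and Eps8 itself 0.08 (limma adjusted p = 0.881). The cardiac troponin T gene Tnnt2 had 1.15 (limma adjusted p = 0.0944), Tnnc1 1.02 and Tnni2 0.18, and Tmc6 0.05. Ttyh3, of the family of Ttyh1, had -1.38 (limma adjusted p = 0.196), opposite in sign to its relative in the block.

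In the remaining 15 lists, with 123 tested genes, no gene was called by limma, in which 9 had an unadjusted p under 0.05, or by edgeR. DESeq2 called Cdc23, Suv39h2 and Il6, limma without T4 called Tmem86a and Suv39h2, and limma without a trend called Brsk2. Directions of whole lists depended on the scaling, since under library size alone 30 of the 123 were higher against 65 in the deposited scale. Among CCR4-NOT genes 4 of 12 were higher, and the smallest p belonged to Tob1 (0.24). Among tri-snRNP genes, the partners of Prpf31, 9 of 15 were higher, and the smallest p belonged to Snrnp200 (-0.58). In the anaphase-promoting complex Anapc1 had -0.55 (limma adjusted p = 0.15), and in the INO80 complex Ruvbl2 had 0.41. Suv39h2, a histone methyltransferase listed beside Kmt5c, had -0.82 (limma adjusted p = 0.127), and 6 of the 7 genes of its list were lower, with 7 lower under library size alone, 5 under upper-quartile scaling and 4 under the GC correction. All 5 retinol dehydrogenases had a positive fold change, also under each scaling, with the smallest p for Rdh10 (0.54, limma adjusted p = 0.175). Of 11 HSP70 genes and cofactors 10 were higher, with the smallest p for Bag1 (0.33), but under library size alone 5 were. The genes with the smallest p in the other lists were Brsk2 (-1.60, at under 10 normalized counts in every tumor, limma adjusted p = 0.0928), Tmem86a (-0.77), Il6st (-0.39), Cdc42ep2 (0.49), Ppp1r14a (0.79), Ankrd28 (0.27) and Ptpn11 (-0.24).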

How the data were processed

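Strand-specific paired-end libraries of 10 tumors were sequenced, trimmed with Trim Galore and mapped with STAR (2.7.0e) by the authors. Their methods name hg38 and their processing notes GRCm39. RSEM is listed among the software of the study without saying for which data, and the counting settings and use of strand are not given in the sources used here. The authors deposited normalized counts (a signal per gene, reads divided by 1 size factor per tumor, as DESeq2 writes them). Within 0.1 of a read, 100.0% of the values above 0 were whole multiples of 1 step, which returned the reads per tumor. Identifiers were matched to GENCODE M21 (52083 of 55359 rows), which gave all positions. The members, lists and tests were chosen with earlier results of these data known.

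The table was fitted with limma (3.58.1, R 4.3.3; mean-variance trend) on log2(normalized count + 1) for the 24560 genes with a mean of at least 1, with Benjamini-Hochberg adjustment and calls at an adjusted p under 0.05. edgeR (4.0.16) and DESeq2 (1.42.0) on recovered reads, other scalings, pseudocounts and filters, a GC correction and leaving out tumors were alternatives. Each fit was tested on simulated counts. Members are named by role, except 1 that is counted but not reported here; all values are given for the 6 highest and the 6 lowest fold changes and for members without overlap, and those of Cnot3 and Kmt5c were added after they were seen. Partner genes are named where called or, for all but 1 list, with the smallest p of their list, and further family members were chosen after their values were seen. Promoter sequences are from RefSeq (GRCm38.p6).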

Additional observations from a re-analysis of the deposited data

Results flagged for a closer look

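Of the members, 36 were searched for a tumor whose gap to its nearest neighbour exceeded 0.71 of the range of its group of 5, and 11 values in 72 groups did so. That limit marks about 1 group in 20 by chance only where groups are independent and values normally distributed. The members share the same 10 tumors and the counts were not logged, so the 11 values are not set against that rate. T4 gave 5 of them and N1 gave 4. T4 held 898 normalized counts of Myadm against 4307 to 5056 in the other D30 tumors, 1825 of Ppp6r1 against 3900.0 to 4262 and 386 of Kmt5c against 2060.5 to 2667, and it was high in Lair1 (1427 against 148 to 309) and Tmem150b (430.3 against 106 to 179). N1 was high in Lair1 (904 against 273 to 341 in the other CTRL tumors), Lilra5 (226 against 75.8 to 96.9) and Rdh13 (774 against 542 to 605), and low in Mboat7 (1089 against 1781 to 2056). T5 was high in Syt5 (355 against 17.2 to 66.04), and N5 was high in Leng1 (358 against 297 to 305). Why these tumors stood apart was not tested.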

How the results depend on the processing

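Counts of calls changed with the processing. Called members numbered 5 with all tumors, 9 with edgeR, 12 with DESeq2, 3 (without N2, N5, N6 or T7) to 10 (without T4) when 1 tumor was left out, and 11 without T4 and T5, an alternative chosen after seeing the data. Genes called in the whole table numbered 678, 1957 with DESeq2, 279 (without N2) to 1573 (without T4) when 1 tumor was left out, and 2418 without T4 and T5. Called partner genes numbered 3, 7 with DESeq2, 3 to 8 (without T4) when 1 tumor was left out and 13 without T4 and T5. Members without overlap numbered 10, and 21 without T4 and T5. Fewer D30 tumors make full separation easier for any gene, and the share over all genes without T4 and T5 was not counted. Without T4 alone that share rose from 2.87% to 5.69% for genes above and from 3.32% to 6.4% for genes below. The median log2 fold change of the members was 0.41, 0.37 to 0.48 when 1 tumor was left out and 0.18 under scaling by library size alone, which moved the median of all genes from -0.06 to -0.27, so that relative to all genes it was 0.47 and 0.45. Members called lower stayed at 0 under every setting, and no called member changed sign. The causes of these shifts were not tested, and no setting raises the 5 tumors per group that limit the precision.

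Fold changes of single members moved by more than the spread between tumors only under scaling by library size alone, in 3 of 37 (Leng1, Prpf31 and Tsen34). That spread includes T4 and was 0.95 for Cnot3 and 0.93 for Kmt5c. The changes without T4 from -0.09 to 0.48 in Cnot3 and from 0.10 to 0.63 in Kmt5c therefore did not count as moved. Without T4 5 members changed sign, and without T4 and T5 7 did. Ptprh, Tmem150b and Tmc4 were called under all 22 alternatives. No paired analysis was possible because the column numbers are not the replicate numbers of the labels.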
